A study of Mus musculus with 24 samples.

Results

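The genes followed here, 10 in all, respond to low oxygen or carry out glycolysis: *Slc2a1*, *Hk2*, *Aldoa*, *Pgk1*, *Ldha*, *Pdk1*, *Vegfa*, *Bnip3*, *Ndrg1* and *Ankrd37*. They were taken by gene symbol, and all 10 were found among the 54658 genes of the deposited table. RNA had been sequenced from dorsal telencephalon of *Cep135* mutant mice (-/- in the labels, an allele with a small CRISPR/Cas9 deletion) and of wild-type (+/+) controls. There were 3 mutant and 3 control cortices at E11.5 (mutants A, B and C, controls D, E and F) and 3 and 3 at E14.5 (mutants 1, 2 and 6, controls 3, 4 and 5), untreated. Neural progenitors from the same 6 E14.5 embryos were dissociated with papain and grown in suspension in a defined medium with growth factors as incipient neurospheres for 12 and 24 h, giving 24 libraries in 8 groups of 3 embryos. The allele was constitutive, and the oxygen supply of the tissue and of the cultures was not among the labels.

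Glycolysis splits glucose into pyruvate in the cytosol, and lactate dehydrogenase can turn that pyruvate into lactate, which restores the cofactor that the pathway consumes. When oxygen is short, hydroxylation by prolyl hydroxylases slows, HIF-1α and HIF-2α escape destruction and, with ARNT, raise transcription of genes for glucose uptake, glycolysis, blood vessel growth and mitochondrial turnover by binding a short DNA core. Early cortical progenitors are known to lean on glycolysis before the cortical vasculature is well established, and neurons rely more on mitochondria.

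The values are 3′ read counts divided by 1 size factor per library, called normalized read counts below. Depth ranged from 4732781 to 11645213 reads on genes, and the ribosomal RNA-like gene *Gm42418* held 6.11% to 34.8% of them. At 24 h the mutant cultures were deeper than the controls without overlap (7903426 to 11645213 against 4732781 to 5709443 reads), with more of the reads on *Gm42418* (20.5% to 23.0% against 6.26% to 13.9%). The label of 1 library, the cortex of embryo 6, gives E11.5 in 1 field and E14.5 in the others, and it was taken as E14.5. Dorsal progenitor and neuron markers were present in all 24 libraries, whereas the summed count of 9 endothelial markers went from 1107 to 1653 in the cortices to 25.3 to 125 in the cultures, and that of 8 microglial markers from 299 to 1101 to 6.31 to 61.7. The sum of 10 erythroid markers was 51578 to 83105 at E11.5, 38297 to 45422 at E14.5, 69471 to 153196 after 12 h and 45601 to 79431 after 24 h. The sum of 11 liver markers ranged from 1.69 to 1549 and differed widely between libraries of 1 stage. In such bulk samples, fewer cells of a type and less RNA per cell cannot be told apart. The 3′ reads of *Cep135* itself do not check the genotype.

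**Figure D1:**
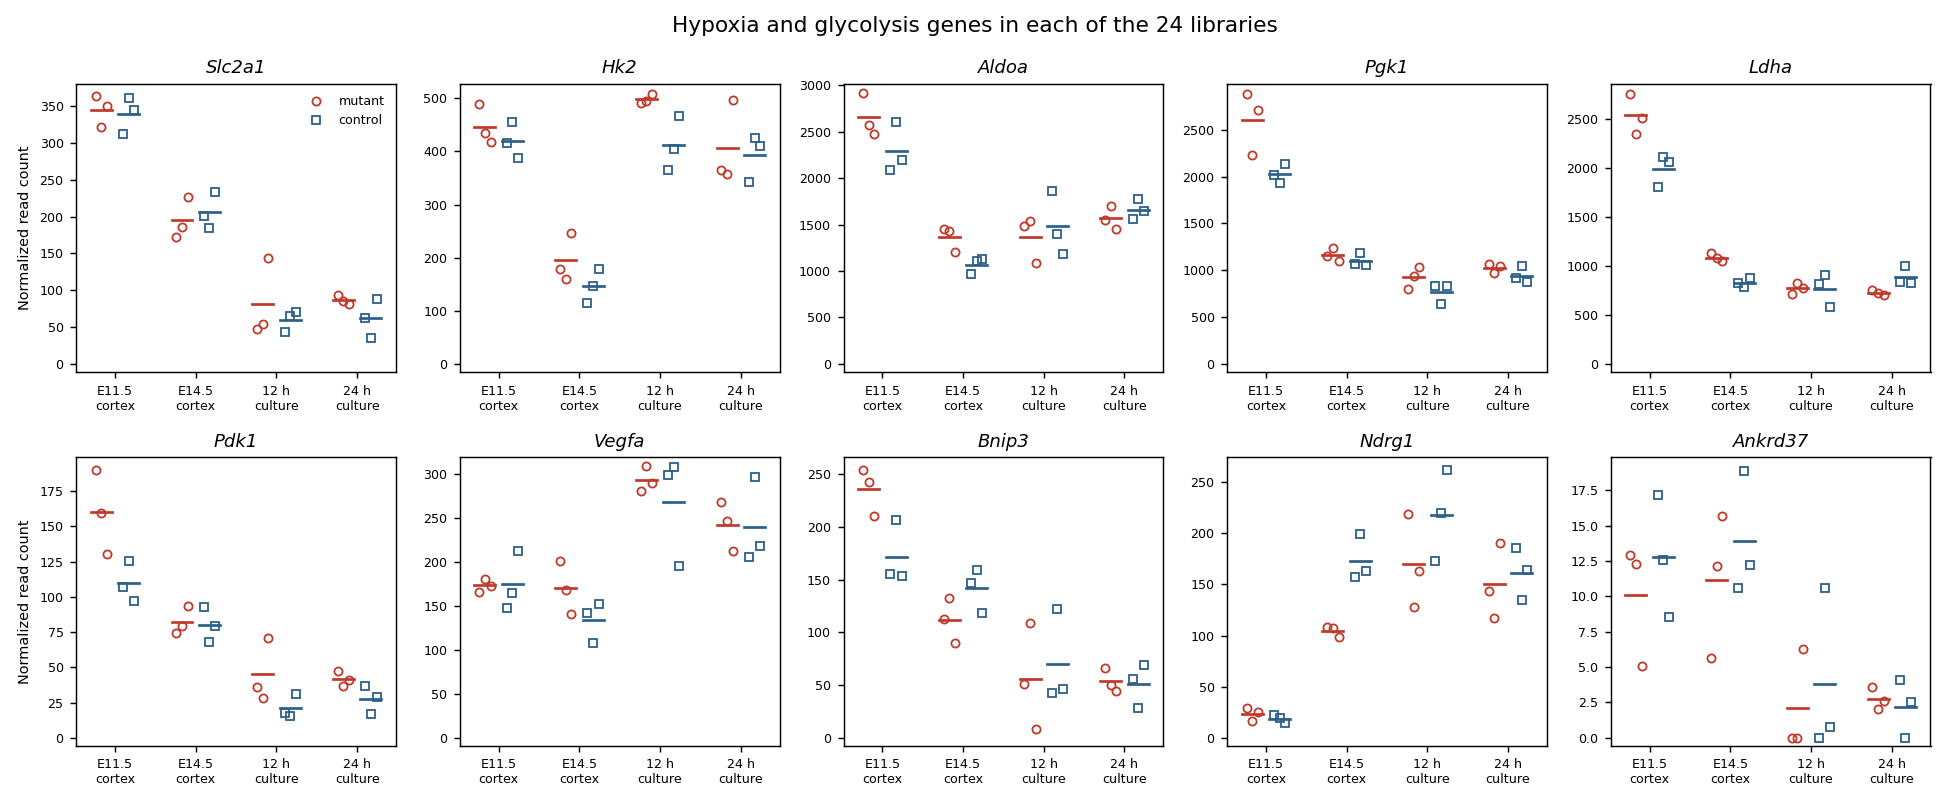
Normalized read counts of the 10 genes (y axis, linear, 1 scale per gene) in E11.5 cortex, E14.5 cortex and neurosphere cultures of 12 and 24 h (x axis). Open circles are mutant and open squares control libraries, 3 of each per stage, and horizontal lines are group means. Ldha, Pgk1 and Aldoa sit highest at E11.5, with Ldha at 1808 to 2755, while Ndrg1 starts at 14.8 to 29.0 there and is at least 98.7 in every later library.

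HIF binds a core of 5 bases, ACGTG or GCGTG, which reads CACGT or CACGC on the other strand. RefSeq start-site windows were at hand for 9 of the 10 genes, *Ndrg1* being the exception, and the 250 bases before the 5′-most start of each were searched on both strands. A core was found in 7 of those 9 windows (77.8%) and in 10442 of 27025 genes overall (38.6%). ACGTG alone stood in 6 of the 9 windows, against 16.5% of all genes, and GCGTG in 4 of the 9, against 28.3%. The members were taken as HIF targets and glycolytic enzymes, and all genes were not matched to them for base composition. The higher share among them thus cannot be read as a result of these data. A match describes the letters only and shows no binding. The windows below belong to the 4 genes whose mutant and control values did not overlap at E11.5 (5′ to 3′ on the gene's strand, build GRCm38.p6, matches in capitals, overlapping matches merged).
*Pgk1* (chrX:106186850-106187099, plus strand): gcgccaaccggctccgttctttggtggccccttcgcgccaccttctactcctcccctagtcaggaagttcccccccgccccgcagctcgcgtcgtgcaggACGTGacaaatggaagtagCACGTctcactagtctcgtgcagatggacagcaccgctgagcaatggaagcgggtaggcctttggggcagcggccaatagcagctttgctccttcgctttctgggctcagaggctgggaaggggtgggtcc
*Ldha* (chr7:46845554-46845803, plus strand): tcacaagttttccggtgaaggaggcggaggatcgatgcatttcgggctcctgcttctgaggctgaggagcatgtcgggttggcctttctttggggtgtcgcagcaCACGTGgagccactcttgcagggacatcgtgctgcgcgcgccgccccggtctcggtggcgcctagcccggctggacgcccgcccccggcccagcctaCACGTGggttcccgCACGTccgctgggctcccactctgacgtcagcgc
*Pdk1* (chr2:71872974-71873223, plus strand): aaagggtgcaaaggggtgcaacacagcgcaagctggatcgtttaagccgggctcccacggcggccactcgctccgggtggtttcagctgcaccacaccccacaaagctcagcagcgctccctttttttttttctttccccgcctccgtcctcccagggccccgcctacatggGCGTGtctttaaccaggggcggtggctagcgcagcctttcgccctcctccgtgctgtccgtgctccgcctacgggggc
*Bnip3* (chr7:138909507-138909756, minus strand): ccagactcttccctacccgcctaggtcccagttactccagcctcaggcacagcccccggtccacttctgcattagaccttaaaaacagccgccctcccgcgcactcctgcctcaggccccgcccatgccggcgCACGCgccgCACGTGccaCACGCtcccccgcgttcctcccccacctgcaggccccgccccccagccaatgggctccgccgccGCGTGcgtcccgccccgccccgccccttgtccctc
*Pgk1* held 2 separate matches, *Ldha* 3, *Pdk1* 1 and *Bnip3* 4. The *Ldha* window precedes a RefSeq start that lies inside the longer GENCODE gene model (chr7:46841475-46855627, plus strand), and the *Aldoa* and *Ankrd37* windows likewise lie inside GENCODE models. RefSeq has 3 windows for *Aldoa* and 2 each for *Ldha*, *Pdk1* and *Vegfa*, of which 1 per gene was searched. The windows searched for *Aldoa* and *Vegfa* held no match. Those of *Slc2a1*, *Hk2* and *Ankrd37*, whose mutant and control values overlapped at E11.5, held 2, 2 and 3.

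The first comparison asked how the genes stood at E14.5 against E11.5 in the 12 cortices, with both genotypes in 1 fit. No title prefix is shared between the E11.5 and the E14.5 cortices, so age and prefix cannot be told apart in any comparison between these ages. Of the 10 genes, 8 passed the test (adjusted p under 0.05, limma): 7 fell and *Ndrg1* rose. The share of all 13650 genes tested that fell was 29.3%, and 23.8% rose, so most genes differed between the ages. The median log2 change was -0.73 over the 10 genes and -0.08 over all genes. P-values here measure the spread between embryos.

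*Slc2a1* encodes GLUT1, the glucose transporter of early neural tissue and of brain endothelium (chr4:119108711-119137983, plus strand). It went from 311 to 364 (median 347) in the 6 E11.5 cortices to 173 to 233 (median 193) at E14.5, a log2 change of -0.77 ± 0.10 (SE; adjusted p = 5.7e-06, limma). The *Slc2a1* groups did not overlap. The endothelial sum moved the same way but with overlap, from 1239 to 1653 at E11.5 to 1107 to 1263 at E14.5. Of 9 endothelial markers 5 were called lower and 1 higher. The part of this cell type in the change was not tested.

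*Hk2*, the inducible hexokinase that traps glucose in the cell (chr6:82725025-82774454, minus strand), stood at 388 to 489.6 (median 425) at E11.5 and at 114 to 247 (median 169) at E14.5. Its log2 change was -1.37 ± 0.13. *Aldoa*, the aldolase that cleaves fructose bisphosphate, fell from 2084 to 2922 (median 2524) to 965 to 1458 (median 1168), by 1.03 ± 0.09 on the log2 scale. Every E14.5 cortex lay below every E11.5 cortex for both genes. The annotation holds 2 neighbouring *Aldoa* models, ENSMUSG00000030695 (chr7:126795234-126800751) and ENSMUSG00000114515 (chr7:126800790-126809108), and the deposited table has 1 row of that name.

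*Pgk1*, which makes the first ATP of the pathway (chrX:106187100-106203699, plus strand), fell from 1936 to 2879 (median 2179) to 1060.1 to 1237 (median 1126), a log2 change of -1.02 ± 0.09. *Ldha*, the lactate dehydrogenase subunit that favours lactate formation, fell from 1808 to 2755 (median 2236) to 784 to 1130.3 (median 961). Its log2 change of -1.25 ± 0.07 had the smallest adjusted p of the 10 genes (1.3e-09, limma, rank 130 of 13650). Neither gene's groups overlapped. *Pgk1*, *Ldha* and *Aldoa* have near-identical processed copies elsewhere in the mouse genome, with which the counting could have shared reads, so their absolute counts are uncertain.

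*Pdk1* encodes the kinase that shuts pyruvate dehydrogenase and so keeps pyruvate out of mitochondria (chr2:71873224-71903858, plus strand). It fell from 97.2 to 190.3 (median 128) to 68.2 to 93.2 (median 79.4), by 0.70 ± 0.14 on the log2 scale (adjusted p = 6.3e-04, limma), without overlap. In the control cortices alone the change was -0.45, which did not pass the test (adjusted p = 0.0808, limma). *Bnip3*, a mitochondrial outer membrane protein that promotes mitophagy (chr7:138890836-138909519, minus strand), went from 153 to 254 (median 209) to 90.0 to 159 (median 126). Its log2 change of -0.68 ± 0.16 passed (adjusted p = 0.0021, limma) although the groups overlapped, and in the controls alone it was -0.27 (adjusted p = 0.256, limma).

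*Ndrg1*, a stress-induced gene also prominent in myelinating glia (chr15:66929318-66969640, minus strand), moved the other way. It stood at 14.8 to 29.0 (median 20.7) at E11.5 and at 98.7 to 199 (median 133) at E14.5, a log2 change of 2.64 ± 0.20, or 6.25-fold on the fitted scale. *Vegfa*, the vascular growth factor (chr17:46016993-46032369, minus strand), ranged over 147 to 212 (median 169) and then 107 to 201 (median 146), with overlap, and its log2 difference of -0.21 did not pass (adjusted p = 0.191, limma). *Ankrd37*, a small ankyrin-repeat gene known as a HIF target (chr8:45996902-46005707, minus strand), was scarce, at 5.05 to 17.1 (median 12.4) and 5.65 to 18.9 (median 12.2), and its difference of 0.13 did not pass (adjusted p = 0.767, limma).

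The rest of the pathway did not move as a block. Of 16 other glycolytic enzyme genes, 15 were tested, and 7 rose and 7 fell with age (median log2 change 0.05). *Aldoc*, the brain aldolase, was at 32.3 to 50.5 in the E11.5 cortices and at 811 to 1290.3 at E14.5, a log2 change of 4.76 ± 0.12, opposite to *Aldoa*. *Eno2*, the neuronal enolase, rose by 1.99 ± 0.18, and *Tpi1*, triose phosphate isomerase, fell by 1.13 ± 0.11 on the log2 scale. A further 4 genes were picked after their values were seen, because they are isoenzymes of these steps. *Hk1* rose by 0.88 while *Hk2* fell, *Pfkp* rose by 1.60 while *Pfkl* fell by 0.92, and *Eno1* fell by 0.92. Neuron marker counts also moved with age, from 8819 to 13207 at E11.5 to 29955 to 42242 at E14.5, and all 8 neuron markers were called higher. Progenitor markers went from 14928 to 19188 to 9970 to 12025 (6 of 9 called lower, 3 higher), and of 10 erythroid markers 6 were called lower and 3 higher. The part of these cell types in the members' changes was not tested.

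Lactate and pyruvate handling was split as well. Of 10 tested genes of glucose and lactate transport and pyruvate entry, 4 rose and 5 fell. *Slc16a3*, the lactate exporter MCT4 and itself a HIF target, went from 187 to 272 to 17.6 to 55.2, a log2 change of -2.94 ± 0.16. *Slc16a1*, the monocarboxylate transporter MCT1, fell by 0.94 ± 0.11, and *Mpc1*, a subunit of the mitochondrial pyruvate carrier, rose by 1.19 ± 0.12. All 3 changes passed the test, with adjusted p of 2.45e-06 or smaller (limma).

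Among the HIF subunits and oxygen sensors, 10 were tested, and 1 rose and 2 fell with age. *Arnt2*, the neural partner subunit, rose by 0.42 ± 0.10, *Hif1a* fell by 0.25 ± 0.08 and *Hif1an*, the asparagine hydroxylase that restrains HIF, fell by 0.34 ± 0.14 on the log2 scale. HIF protein is set mainly by degradation, which RNA does not show. Of 16 tested genes in a list of other HIF targets, 3 rose and 8 fell, with a median of -0.42. *Mxi1*, a MYC antagonist, rose by 0.68 ± 0.09. *Gbe1*, the glycogen branching enzyme, fell by 1.28 ± 0.17 and *Ak4*, a mitochondrial adenylate kinase, by 1.39 ± 0.20.

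**Figure D2:**
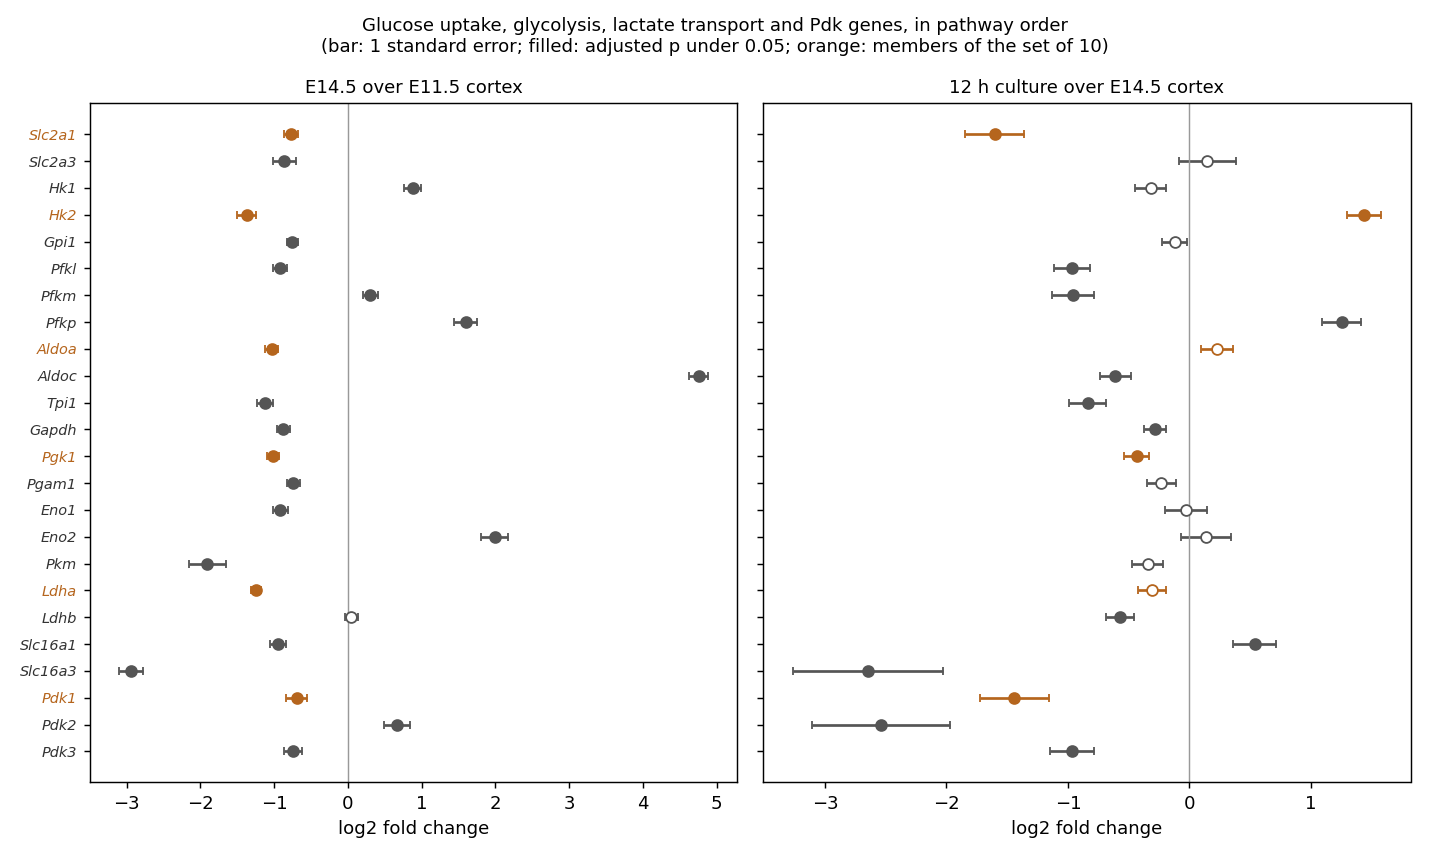
Log2 fold change (x axis) of 24 genes of glucose uptake, glycolysis, lactate transport and pyruvate dehydrogenase kinases, listed in pathway order, for E14.5 over E11.5 cortex (left) and 12 h culture over E14.5 cortex (right). Points are fitted values, bars 1 standard error, filled points passed an adjusted p of 0.05, and orange marks members of the set of 10. On the left Aldoc lies at 4.76 and Aldoa at -1.03, and on the right Hk2 lies at 1.44 and Slc2a1 at -1.60.

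The next comparison, mutant against control, is the one the study was built on. None of the 10 genes passed the test at any stage or in the 12 cortices together. At E11.5 the smallest adjusted p among them was 0.585 (limma), and 0.0149% of all 13406 genes passed. For 4 of the 10 (*Pgk1*, *Ldha*, *Pdk1* and *Bnip3*) the 3 mutant values all lay above the 3 control values, and for 0 all below. The background for such separation was 7.16% of all genes above and 6.11% below. In all, 9 of the 10 log2 differences were above 0, with a median of 0.26 against 0.02 for all genes, and the same 4 genes had unadjusted p under 0.05.

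*Pgk1* read 2879, 2229 and 2708 in E11.5 mutants A, B and C against 2016, 1936 and 2129.7 in controls D, E and F, a log2 difference of 0.35 ± 0.12 (adjusted p = 0.610, limma). *Ldha* read 2755, 2352 and 2514 in the mutants against 1808, 2119 and 2059.7 in the controls, a difference of 0.35 ± 0.11 (adjusted p = 0.585, limma). In both genes the lowest mutant was B, the shallowest of the 3 mutant libraries, and it still exceeded every control.

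*Pdk1* counted 190.3, 159.5 and 131 in the mutants against 107, 125 and 97.2 in the controls, a log2 difference of 0.53 ± 0.18. *Bnip3* counted 254, 242 and 211 against 155, 207 and 153, a difference of 0.46 ± 0.16, and both had an adjusted p of 0.610 (limma). Mutant C lay close to control E for both genes, so the gap between groups was narrow. Libraries A and D carry a title prefix other than that of the remaining 4. The descriptions give mutants B and C a further prefix of their own, and by that label prefix and genotype cannot be told apart in those 4 libraries. Mutants A and C and control E were female. *Aldoa* was at 2922, 2572 and 2476 in the mutants against 2084, 2610.0 and 2199.6 in the controls, and *Hk2* at 489.6, 434 and 417 against 415, 456 and 388. Those ranges overlapped, as did those of *Slc2a1*, *Vegfa*, *Ndrg1* and *Ankrd37*, whose log2 differences were 0.03, 0.00, 0.31 and -0.36. Summed dorsal progenitor markers were lower in these mutants without overlap (14928 to 16536 against 16614 to 19188). Liver markers summed to 223, 20.1 and 874 in mutants A, B and C against 12.1, 18.4 and 10.1 in controls D, E and F, and 6 of the 11 were tested, with 0 called and a median log2 difference of 3.01. All 8 neuron markers were lower in these mutants (median log2 difference -0.26). Of 8 microglial markers 6 were higher and 2 lower (median 0.64), and 0 were called in either list. The part of any of these markers in the differences was not tested. Without mutant C, which had the highest liver sum, the *Ldha* difference was 0.35, and without mutant A 0.29. Each of these fits kept the other mutant with a raised liver sum, so the liver part cannot be read from them.

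At E14.5 again no gene of the 10 passed, where 0.0736% of 13583 genes did, and 6 of the 10 differences were above 0, with a median of 0.06. *Aldoa* and *Ldha* separated upward and *Ndrg1* downward, against a background of 7.02% upward and 6.71% downward. *Aldoa* read 1458, 1429.7 and 1203 in mutants 1, 2 and 6 against 965, 1103 and 1132 in controls 3, 4 and 5, a log2 difference of 0.35 ± 0.13 (adjusted p = 0.507, limma). *Ldha* read 1130.3, 1078 and 1049 in the mutants against 822, 784 and 874 in the controls, a difference of 0.39 ± 0.12 (adjusted p = 0.408, limma). Every *Ldha* mutant value was above every control value, as at E11.5, although the level was far lower.

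*Ndrg1* read 108, 107 and 98.7 in the mutants against 158, 199 and 163 in the controls. The log2 difference was -0.71 ± 0.17 with an adjusted p of 0.282 (limma), and no mutant approached the lowest control. *Pgk1* (1155, 1237 and 1097 against 1062, 1186 and 1060.1), *Pdk1* (74.5, 79.5 and 93.2 against 92.9, 68.2 and 79.3) and *Bnip3* (113, 132 and 90.0 against 147, 159 and 119), which had separated at E11.5, overlapped here. *Hk2* was at 179.5, 159 and 247 against 114, 147 and 179 and *Vegfa* at 201, 168 and 141 against 141, 107 and 152, each overlapping, with log2 differences of 0.41 and 0.35. *Slc2a1* and *Ankrd37* differed by -0.09 and -0.35 on that scale.

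Markers of other cells moved with genotype in these E14.5 cortices. Neuron markers summed to 29955 to 32084 in the mutants against 39456 to 42242, and microglial markers to 882 to 1101 against 454 to 551, neither overlapping. Mutants 1 and 2 were female by *Xist* and Y-linked transcripts while all 3 controls were male. With a term for embryo sex, the genotype difference at E14.5 rests on mutant 6 alone, the only male mutant, against the 3 controls. Those log2 differences were 0.18 for *Aldoa*, 0.35 for *Ldha* and -0.80 for *Ndrg1*. Sex and genotype cannot be told apart in mutants 1 and 2. Liver markers summed to 22.6, 26.5 and 11.7 in the mutants against 12.9, 1062 and 1095 in controls 3, 4 and 5, with 7 tested, 0 called and a median log2 difference of -3.87. Control 3, the 1 control with a liver sum like that of the mutants, had *Ldha* at 822, *Aldoa* at 965 and *Ndrg1* at 158. The part of neurons, microglia and liver markers in the genotype differences was not tested.

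**Figure D3:**
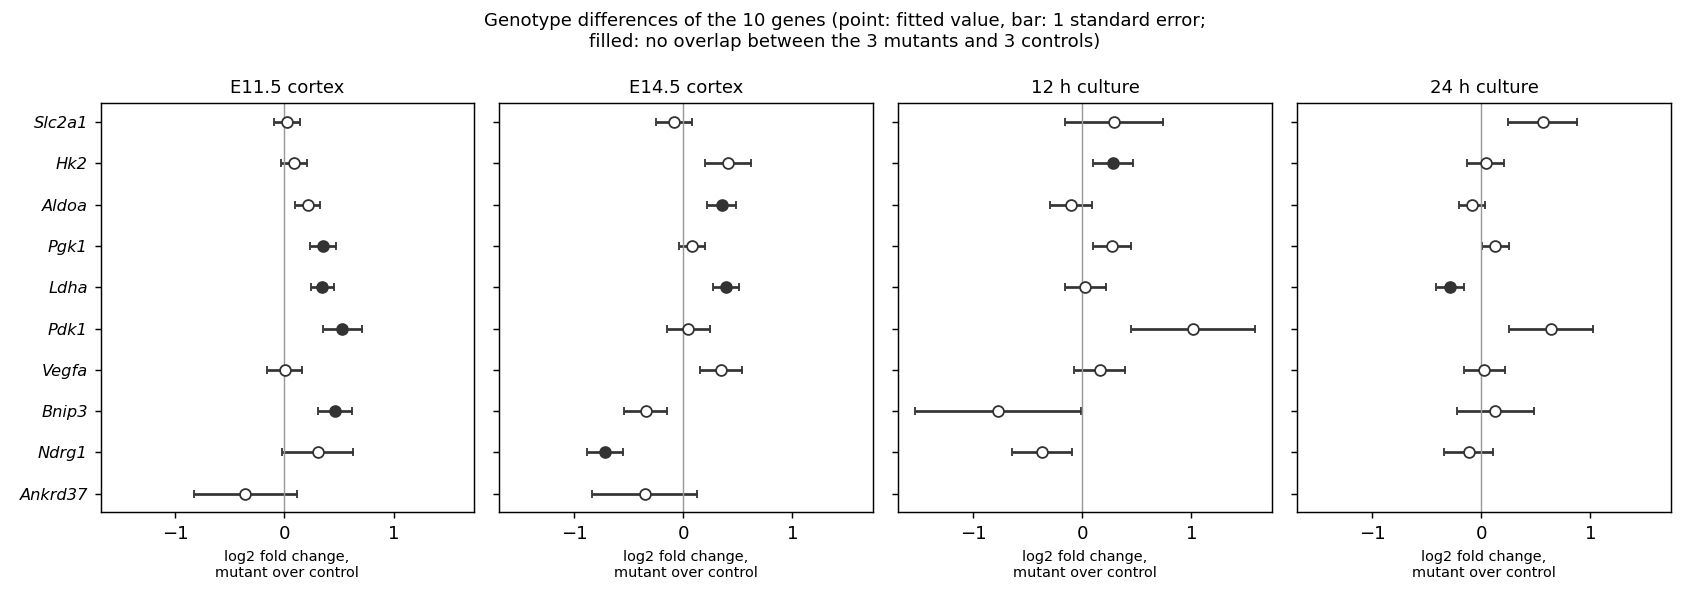
Log2 fold change of mutant over control (x axis) for the 10 genes at each of the 4 stages. Points are values fitted by limma, bars 1 standard error, and filled points mark genes whose 3 mutant and 3 control values did not overlap; Ankrd37 was too scarce to be tested in the cultures. Filled points number 4 at E11.5, 3 at E14.5 and 1 in each culture, and Ldha is at 0.35, 0.39, 0.03 and -0.29 from left to right.

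Over the 12 cortices, with a term for stage, the mutant-control difference of *Ldha* was 0.37 ± 0.07 on the log2 scale, a 1.29-fold higher level. It ranked 23rd by p of 13650 genes and missed the threshold (adjusted p = 0.0658, limma), where 0.139% of genes passed. An exact two-sided permutation test of genotype within stage gave p = 0.005, the smallest that its 400 arrangements allow, before any correction for the 10 genes examined. The same test gave 0.015 for *Aldoa*, 0.02 for *Pgk1* and 0.075 or more for the other 7. *Ldha* was the only 1 of the 10 whose mutants exceeded the controls at both ages, against 0.813% of genes tested (0.52% were lower at both). Any gene separated in that way reaches the smallest p of the permutation test, so the separation and that p are 1 observation. The adjusted p of *Ldha* ran from 0.0575 to 0.787 over the alternatives, the highest with a term for embryo sex, where the difference was 0.31.

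Of the other pathway genes, 2 separated in that way at both ages. *Slc16a3* read 272, 272 and 263 in the E11.5 mutants and 187, 221 and 207 in the controls. At E14.5 it read 33.9, 55.2 and 39.2 against 17.6, 26.9 and 19.2, and the difference over the 12 cortices was 0.68 ± 0.16 (adjusted p = 0.166, limma). *Gpi1*, the isomerase after hexokinase, read 1545, 1526 and 1372 against 1172, 1244 and 1267 at E11.5 and 955, 947 and 804 against 638, 731 and 763 at E14.5, a difference of 0.31 ± 0.08 (adjusted p = 0.209, limma). No gene of the 4 pathway lists passed the genotype test at any stage. *Pkm*, the pyruvate kinase gene (chosen after its values were seen), separated at E14.5 alone, at 1783, 1613 and 1552 against 1067, 1161 and 1328, and at E11.5 control D (2015) and control E (9250.0) bracketed every mutant.

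**Figure D4:**
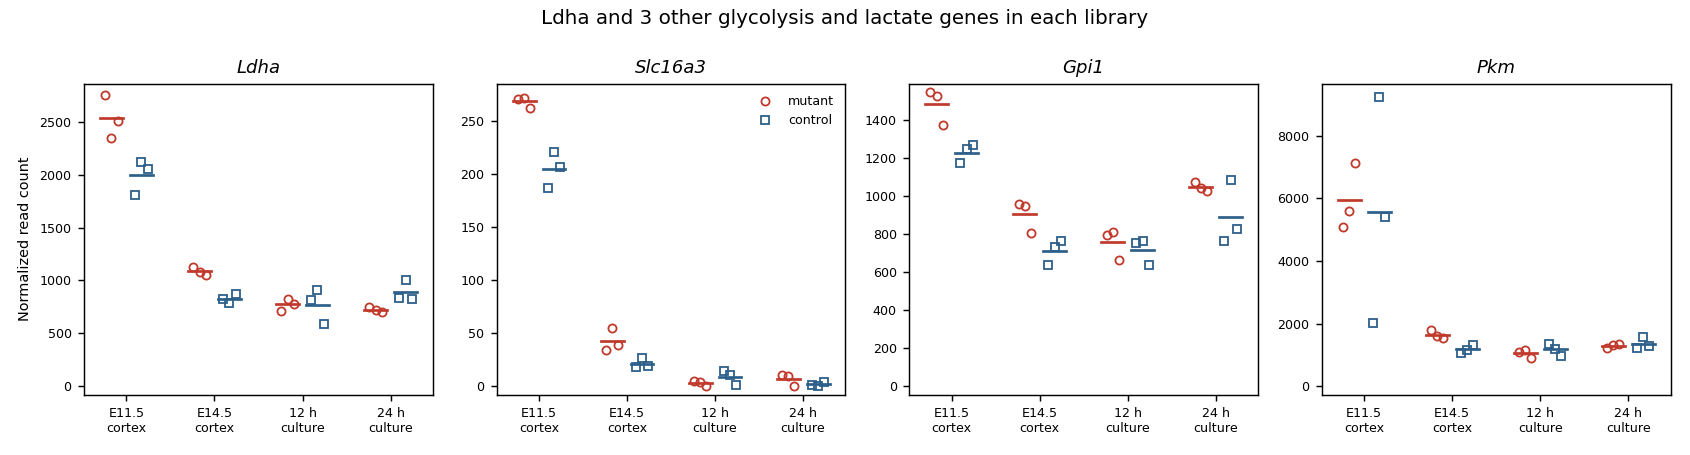
Normalized read counts (y axis, linear) of Ldha, Slc16a3, Gpi1 and Pkm in the 4 stages (x axis), with circles for mutant libraries, squares for controls and lines for group means of 3. Mutants lie above controls for Ldha, Slc16a3 and Gpi1 in both cortical stages, and for Ldha they lie below the controls at 24 h in culture (699 to 751 against 824 to 1001).

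The difference of the genotype effect between the ages was fitted as an interaction. None of the 10 genes passed, nor did any gene (0% of 13650 by limma, with 1070 at an unadjusted p under 0.05). *Ndrg1* and *Bnip3* had unadjusted p under 0.05, with interaction terms of -1.02 ± 0.32 and -0.81 ± 0.25 on the log2 scale (adjusted p = 0.620 for each, limma). *Bnip3* had thus a mutant-control difference of 0.46 at E11.5 and -0.34 at E14.5, and *Ndrg1* one of 0.31 and -0.71, but the tests did not establish that either differed between ages.

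In the 12 h cultures no gene of the 10 passed between genotypes, and 0% of 13389 genes did (limma; 650 at an unadjusted p under 0.05, 0 by edgeR and 9 by DESeq2). *Hk2* was the only 1 of 9 tested members to separate, at 491, 495 and 508 in the mutants against 365, 405 and 466 in the controls, a log2 difference of 0.28 (adjusted p = 0.913, limma). The background was 5.09% upward and 5.94% downward. The summed count of endothelial markers also separated in these cultures (93.6 to 125 against 31.1 to 71.6). Of 4 such markers tested, 2 were higher and 2 lower in the mutants. Erythroid markers were lower for 9 of 10 and neuron markers for 7 of 8. Progenitor markers were higher for 8 of 9 and liver markers for all 9 tested, with 0 called in any of these lists. The part of these markers was not tested. *Ldha*, at 715, 827 and 776 in the mutants against 813, 911 and 583 in the controls, overlapped fully. *Pdk1* read 36.1, 28.4 and 70.8 against 17.3, 15.3 and 31.1, with embryo 6 far above the rest. In *Bnip3* the same culture was the lowest of the 24 libraries, as the mutants read 50.7, 108 and 8.06 and the controls 42.5, 122 and 46.3.

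After 24 h, 0.271% of 13300 genes passed between genotypes, and again none of the 9 members tested. *Ldha* now separated downward, at 751, 724 and 699 in mutants 1, 2 and 6 against 836, 1001 and 824 in controls 3, 4 and 5. Its log2 difference was -0.29 ± 0.13 (adjusted p = 0.452, limma), and separation had a background of 7.15% upward and 9.06% downward. *Pdk1* read 47.3, 36.4 and 41.0 in the mutants against 36.9, 16.9 and 28.8 in the controls, with 1 pair of values in reverse order. Depth and the *Gm42418* share differed between these groups as given above. Progenitor markers summed to 12753 to 14191 in the mutants against 10757 to 11424 in the controls, with 7 of 9 higher and 0 called. Neuron markers summed to 28055 to 35148 against 34986 to 42180, with 8 of 8 lower and 1 called. Liver markers summed to 125, 201 and 447 in mutants 1, 2 and 6 against 1.69 to 6.83 in the controls, where 8 of the 11 had no read in any control. All 6 liver markers tested separated upward and 2 were called, with a median log2 difference of 4.52. The part of these shifts in the *Ldha* difference was not tested. At both culture times the embryos were those of the E14.5 cortices, so mutants 1 and 2 were female and controls 3, 4 and 5 male. Sex and genotype cannot be told apart in these 2 mutants.

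The genotype effect was also compared between stages in culture. Between 12 h culture and E14.5 cortex, 0% of 13601 genes passed (724 at an unadjusted p under 0.05), and between 24 h and 12 h culture 0% of 13359 (318), both by limma and with none of the members at an unadjusted p under 0.05. Between 24 h culture and E14.5 cortex, a test added after the values of *Ldha* were seen, 0% of 13579 genes passed (836 at an unadjusted p under 0.05). *Ldha* had the smallest p of the members there, with an interaction of -0.68 ± 0.16 (adjusted p = 0.329, limma).

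The culture comparison asked how the genes stood after dissociation and 12 h in suspension. Against E14.5 cortex of the same 6 embryos, 7 of 9 tested members passed (limma): *Hk2*, *Vegfa* and *Ndrg1* rose, and *Slc2a1*, *Pdk1*, *Pgk1* and *Bnip3* fell. This fit, like that of 24 h against 12 h below, did not pair the libraries of an embryo. With the embryo as block the same 7 passed, with adjusted p of 0.0099 for *Bnip3* and 0.0398 for *Ndrg1* (limma). Among all 13601 genes 14.1% rose and 16.1% fell, and the median log2 change was -0.31 over the 9 members and -0.06 over all genes. The mutant libraries alone gave 4 calls and the control libraries alone 5, each with fewer libraries.

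*Hk2* rose from 114 to 247 (median 169) to 365 to 508 (median 479), a log2 change of 1.44 ± 0.14 (adjusted p = 1.9e-06, limma), compared with 388 to 489.6 at E11.5. *Vegfa* rose from 107 to 201 (median 146) to 195 to 308 (median 294), by 0.89 ± 0.15. For *Hk2* no culture overlapped a cortex, and *Vegfa* was separate within each genotype, though 1 control culture (195) lay below 1 mutant cortex (201). *Ndrg1* went from 98.7 to 199 (median 133) to 128 to 262 (median 196), with overlap. Its change of 0.49 ± 0.16 passed narrowly (adjusted p = 0.0312, limma) and was lost on leaving out any 1 of 7 libraries (cortices 1, 2, 3, 5 and 6 and 12 h cultures 1 and 5), with adjusted p up to 0.0795.

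*Slc2a1* fell from 173 to 233 (median 193) to 44.0 to 144 (median 59.1), by 1.60 ± 0.24 on the log2 scale (adjusted p = 1.4e-04, limma), and every culture lay below every cortex. *Pdk1* fell from 68.2 to 93.2 (median 79.4) to 15.3 to 70.8 (median 29.8), by 1.44 ± 0.29 (separate within each genotype), and *Pgk1* from 1060.1 to 1237 (median 1126) to 639 to 1034 (median 830.2), by 0.43 ± 0.10. *Bnip3* went from 90.0 to 159 (median 126) to 8.06 to 122 (median 48.5), a change of -1.37 ± 0.45 (adjusted p = 0.0294, limma). The *Bnip3* groups overlapped, and the call was lost on leaving out any 1 of 6 libraries (cortices 1, 2, 3 and 4 and 12 h cultures 3 and 5), with adjusted p up to 0.0657.

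*Ldha* and *Aldoa* did not pass in this comparison. *Ldha* went from 784 to 1130.3 (median 961) to 583 to 911 (median 794), a log2 difference of -0.31 ± 0.12 (adjusted p = 0.0521, limma), and *Aldoa* from 965 to 1458 (median 1168) to 1088 to 1867 (median 1440.0), a difference of 0.23 ± 0.13. *Ankrd37* had 5 to 26 reads in the E14.5 cortices and 0 to 9 in the 12 h cultures and was not tested. It had 0 reads in 3 of the 12 h cultures and in 1 of the 24 h cultures, and 0 counts allow a level of up to 2.92 to 5.06 normalized counts in those libraries. Such limits cover counting error only.

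Of the other pathway genes, 16 glycolytic enzymes were tested at 12 h, and 2 rose and 6 fell. *Pfkp*, the platelet-type phosphofructokinase, rose by 1.25 ± 0.16, *Pfkl* fell by 0.97 ± 0.15 and *Tpi1* fell by 0.84 ± 0.15 on the log2 scale. Among 10 genes of transport and pyruvate entry, 1 rose and 4 fell: *Pdk2* changed by -2.54 ± 0.57, *Slc16a3* by -2.65 ± 0.62 and *Pdk3* by -0.96 ± 0.18. Of 15 other HIF targets 2 rose, *Ak4* by 1.62 ± 0.24 and *Stc2*, a secreted stanniocalcin, by 1.69 ± 0.44, and *Bnip3l*, a mitophagy receptor related to *Bnip3*, fell by 0.77 ± 0.16.

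The HIF machinery changed too, with 2 of 10 tested genes higher and 4 lower at 12 h. *Epas1*, which encodes HIF-2α, stood at 56.5 to 93.8 in the E14.5 cortices and 0.975 to 15.2 in the cultures, a log2 change of -3.88 ± 0.52. *Egln3*, a prolyl hydroxylase, stood at 41.2 to 62.9 and 1.17 to 22.1, a change of -2.63 ± 0.43, and *Hif1an* rose by 0.56 ± 0.14. *Hif1a* did not pass, with a difference of 0.10 ± 0.10 (adjusted p = 0.462, limma). *Epas1* and *Slc2a1* are well expressed by endothelium, whose 9 markers summed to 1107 to 1263 in these cortices and 31.1 to 125 in the 12 h cultures, and the 8 microglial markers summed to 454 to 1101 and 6.31 to 44.0. Erythroid markers went the other way, from 38297 to 45422 up to 69471 to 153196, with 8 of 10 called higher and 1 lower, and liver markers from 11.7 to 1095 to 3.15 to 1549, with 0 of 9 tested called. Of 9 dorsal progenitor markers 5 were called lower and 1 higher in the 12 h cultures (median log2 change -0.88). Their sums overlapped, at 9970 to 12025 in these cortices and 9846 to 12855 in the cultures. Among 8 neuron markers 1 was called lower and 0 higher. The part of these cell types in the changes was not tested.

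**Figure D5:**
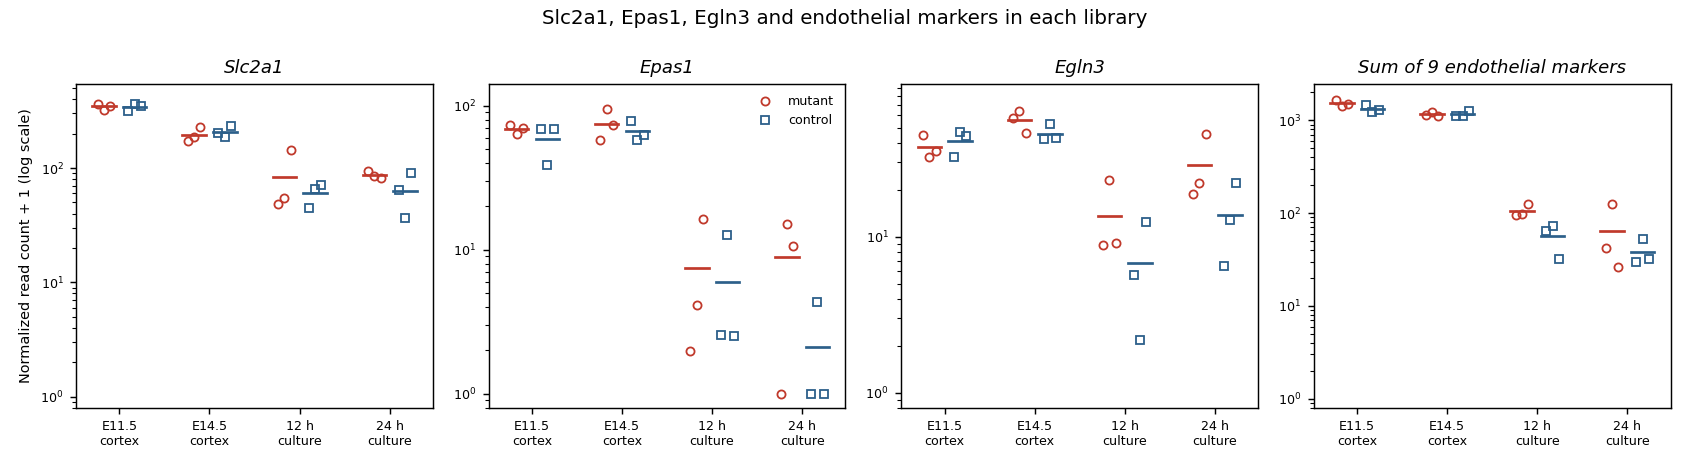
Normalized read count plus 1 (y axis, log scale) of Slc2a1, Epas1, Egln3 and the sum of 9 endothelial markers in each library, by stage (x axis), with circles for mutant and squares for control libraries and lines for group means. Slc2a1, Epas1 and the endothelial sum are lower in every culture than in every cortex, Egln3 reaches 44.5 again in 1 culture at 24 h, and the endothelial sum is at least 1107 in the cortices and at most 125 in the cultures.

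From 12 to 24 h none of the 9 members passed (limma; 0 also by edgeR and by DESeq2, and 1, *Pgk1*, at an unadjusted p under 0.05). Only 0.15% of all genes rose and 0.142% fell, out of 13359. Member log2 differences lay between -0.30 (*Ndrg1*) and 0.23 (*Pgk1*). *Hk2* stayed within 343 to 498 (median 388) and *Vegfa* within 205 to 297 (median 232), both overlapping their 12 h range, while *Slc2a1* was at 35.4 to 93.9 (median 83.1). No gene of the pathway lists passed either.

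Across the 4 stages the members therefore had different orders. *Slc2a1*, *Pgk1*, *Ldha*, *Pdk1* and *Bnip3* had their highest median at E11.5 and lower ones in both cultures than in either cortex. None of the members tested passed between 12 and 24 h. *Aldoa* and *Hk2* were lowest at E14.5 by median, and *Ndrg1* and *Vegfa* were highest in the cultures.

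Within groups the members did not vary as 1 unit. After subtracting group means, the 36 pairs of the 9 members with a mean of at least 10 had a median Pearson r of -0.01 over the 24 libraries, and the median over all genes was 0.00. *Ldha* varied most like *Vegfa* (r = 0.77) and *Pdk1* most like *Slc2a1* (r = 0.75), whereas *Ndrg1* and *Vegfa* had r = -0.61. Libraries share depth and, for E14.5 and culture samples, embryos, so these values are descriptive. Embryo sex also differed within some groups, and its part in these correlations was not removed. The 10 genes that most resembled the mean deviation of the members, out of 9652 compared, were *Ei24* (r = 0.81), *Eif2s3x* (0.75), *Nans*, *Prelid1*, *Chpf*, *Ppm1g*, *Ppdpf*, *Dlst*, *Urod* and *Gpatch2l* (0.63). None was in the pathway lists, and each member's own r with the mean of the rest lay between -0.35 (*Bnip3*) and 0.13 (*Ldha*).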

How the data were processed

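The authors prepared oligo(dT)-primed 3′ libraries (QuantSeq FWD) from total RNA, trimmed adapters and polyA, aligned reads to GRCm38 with TopHat2 2.0.10, which ran SAMtools 0.1.19 and Bowtie 1.0.0, and counted them per gene, by strand, with HTSeq 0.6.1. The deposited table gives a signal for 54658 genes, reads scaled by a single size factor in each library, with replicates not pooled. Values above 0 were whole multiples of 1 read's worth in 23 libraries. In E11.5 control D that worth is too near 1 to tell, so count tests were not run where it takes part.

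The members and gene lists were chosen with earlier results of these data known. Log2(value + 1) was fitted with limma 3.58.1 (trend, R 4.3.3) on genes whose mean reached 10 across the libraries of a comparison, two-sided, with Benjamini-Hochberg adjustment over all genes and a threshold of 0.05. A fold change is on that scale and understates changes of low genes. The script was tested on simulated data. Each of the 10 members is given with its values, fitted differences are given where it passed or its groups did not overlap, and up to 3 genes per pathway list are named per comparison by smallest p among those that passed. The libraries of an E14.5 embryo carry its number in the labels and come from 1 animal. The deviations from group means of its libraries had r between -0.114 and 0.235 over 18 pairs (median 0.136, 12 above 0.1). Alternatives were a pseudocount of 0.1 or 5, a mean filter of 0 or 50, a threshold of 0.1, quantile normalization, all 24 libraries in 1 fit, 1 genotype alone, the embryo as block, terms for sex and title prefix, each library left out, edgeR 4.0.16 and DESeq2 1.42.0. Gene positions come from GENCODE vM21 and start-site windows from RefSeq (GRCm38.p6), matched by symbol. Each library is 1 embryo, and p-values rest on 3 embryos a group.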

Additional observations from a re-analysis of the deposited data

Results flagged for a closer look

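*Ldha* was flagged because its genotype difference had opposite signs in cortex and in culture, with no overlap between the groups on either side. The 3 mutants were above the 3 controls in E14.5 cortex and below them after 24 h of culture, and the difference of the 2 log2 fold changes was -0.68 ± 0.16 (unadjusted p = 6.3e-04, adjusted p = 0.329 over 13579 genes, limma). With the embryo as block, the adjusted p was 0.294. Against E11.5 cortex the same difference was -0.63, which was not tested. Depth, the share of *Gm42418*, and progenitor, neuron and liver markers differed between the 24 h groups, and neuron and microglial markers between the E14.5 groups. At 24 h, 8 of 8 neuron markers were lower (1 called), and of 9 progenitor markers 7 were higher and 2 lower (0 called). The liver sum was 125 to 447 in the 24 h mutants against 1.69 to 6.83, and 11.7 to 26.5 in the E14.5 mutants against 12.9, 1062 and 1095 (median log2 difference of the tested markers 4.52 at 24 h and -3.87 at E14.5). The part of these in the *Ldha* difference was not tested. In the E14.5 cortices and the 24 h cultures, mutants 1 and 2 were female and the controls male. Sex and genotype cannot be told apart in those mutants.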

How the results depend on the processing

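Named members gave 496 values under alternatives: 471 kept their direction and side of the threshold, 24 kept the direction but lost the call, 1 gained it and 0 reversed. Members called in 12 h culture against E14.5 cortex numbered 7, but 4 in the mutant libraries only, and 5 to 8 on leaving out 1 library. With adjusted p under 0.1, *Ldha* was the 1 member called between genotypes in the 12 cortices. With the embryo as replicate block (paired), 7 members passed in 12 h culture against cortex, and no other call changed. All genes called then numbered 3885 in place of 4107, and 104 in place of 39 for 24 h against 12 h, and differences of genotype effect passed for 3 genes (12 h culture against cortex) and 6 genes (24 h culture against cortex) in place of 0. Counts over all genes depended more on the setting: 0 to 17 (2 in the report) for genotype at E11.5, 1 to 74 (10) at E14.5, 0 to 182 (0) at 12 h, 4 to 182 (36) at 24 h, 6 to 35 (19) in the 12 cortices, 1 to 163 (39) between culture times and 1219 to 5310 (4107) for 12 h culture against cortex. The cause was not tested. Count tests were not run where E11.5 control D takes part. Low counts limit *Ankrd37* most.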
